A study of Homo sapiens with 6 samples.

Results

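The genes described here encode the machinery that degrades messenger RNA: 53 genes of the RNA exosome, the deadenylases, the decapping and 5′-to-3′ decay apparatus, and nonsense-mediated decay (NMD). They were chosen by name from the 32862 genes of the table, with earlier results of these data known, and all 53 were found. By complex there were 12 exosome genes, 18 deadenylase genes (with the poly(A)-binding proteins and the TOB adaptors), 16 decapping genes and 7 NMD genes. RNA selected on oligo(dT) beads was sequenced from SH-SY5Y, a human neuroblastoma cell line. There were 3 libraries of cells labelled OTULIN KO, in which the deubiquitinase gene OTULIN was targeted with CRISPR-Cas9, and 3 of wild-type (WT) cells. Both groups were untreated, were grown in the same DMEM-F12 medium with serum and carry the same batch label, 1. The labels do not say whether the KO cells were 1 clone or several, nor whether each replicate was its own culture. P-values here therefore describe the spread among these libraries, and that spread may be technical.

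Most messenger RNAs are degraded in steps. The CCR4-NOT and PAN2-PAN3 complexes and PARN shorten the poly(A) tail, which poly(A)-binding proteins cover. The message is then either decapped by DCP2 and digested from its 5′ end by XRN1, or digested from its 3′ end by the exosome. The exosome is a ring of inactive subunits with DIS3, DIS3L or EXOSC10 as nucleases. NMD is a surveillance branch in which UPF1, with its kinase SMG1, directs messages with premature stop codons into these same pathways.

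The libraries labelled OTULIN KO stand apart from WT in depth, and every result below rests on them. They held 725827 to 862932 counts against 61772795 to 64352333 in WT, a ratio of the mean totals of 78.5, and 2306 to 2567 genes had a count against 27453 to 27958. OTULIN was at 0 counts in each KO library and at 1682, 2101 and 2155 in WT, but 71.3% of the 10820 genes tested were at 0 in all KO libraries, so its absence does not check the label. Of 12 markers of neuroblastoma identity 7 were at 0 in KO, PHOX2A, GATA3, DBH, TH, CHGA and CHGB among them, and their summed level was 537 to 696 CPM, counts scaled to the library total, in KO and 6281 to 6945 in WT. Among markers of other cells, the summed CPM of 5 epithelial genes ranged from 4.94 to 28.97 (KO) and 7.43 to 23.1 (WT), with KRT8 at 0 in KO. For 4 blood genes the ranges were 4.64 to 26.2 and 1.40 to 3.30, with CD14 at 0 in KO, and for 4 genes of glia and endothelium 0 to 4.13 and 0.109 to 0.884, with GFAP and AQP4 at 0 in KO. For 5 fibroblast or mesenchymal genes they were 64.9 to 150.2 and 352 to 364: VIM, COL3A1 and FN1 were lower in KO, COL1A2 was not called and COL1A1 was 5.10-fold higher (edgeR adjusted p = 0.0019). The 37 mitochondrial genes of the table took 0.00372% to 0.00452% of the counts in KO and 8.41% to 8.70% in WT. Zeros in most genes and so small a mitochondrial share set the KO libraries apart from WT in kind as well as in depth. Whether this arose in the cells, in the libraries or in the steps that made the table cannot be settled from the table, and the raw reads were not analysed here. Each fold below therefore compares the libraries as labelled and is not a measure of the loss of OTULIN. The part of depth, of composition or of other cells in the results was not tested, and depth and genotype label cannot be told apart.

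The RNA decay genes were grouped by their summed KO counts, at 0, at 1 to 29 and at 30 or more. There were 33 members at 0 counts in every KO library, 5 members with 2 to 29 counts over the 3 libraries together, and 15 members with at least 96. All 53 had counts in each WT library. The 15 and XRN1 were the 16 members seen in all 3 KO libraries, and the remaining 4 were each seen in only 1 (DIS3, EXOSC3, CNOT10 and UPF1). Of all tested genes 13.8% had at least 30 KO counts, against 28.3% of the members. As the members were chosen with earlier results known, this is a description only.

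**Figure D1:**
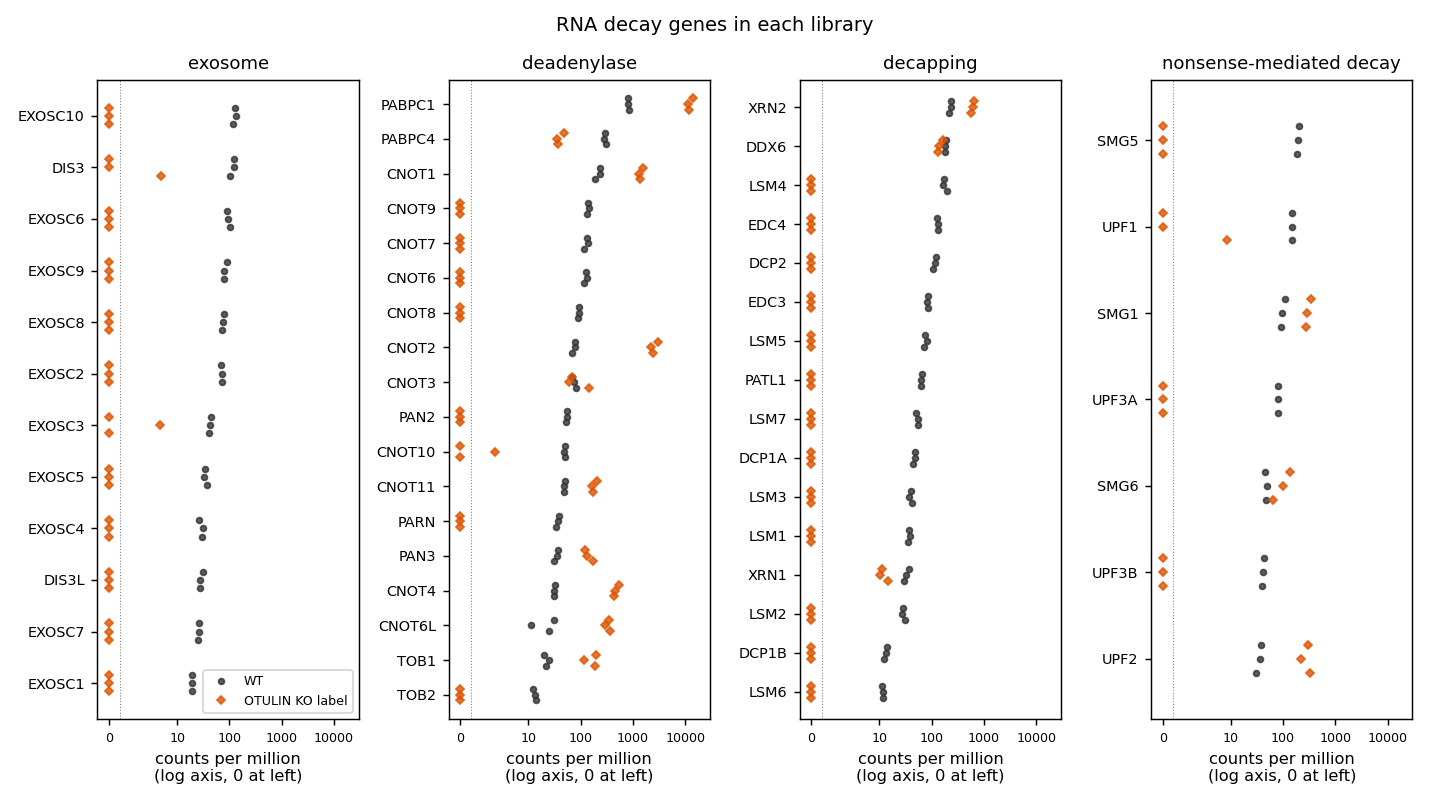
Level of each of the 53 RNA decay genes in each library, in CPM on a log axis, with 0 placed left of the dotted line and 1 panel per complex. Circles are the 3 WT libraries and diamonds the 3 libraries labelled OTULIN KO. The 33 members at 0 in KO form the left-hand columns of diamonds, and most of the detected members, such as PABPC1 and CNOT2, lie to the right of WT.

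Of the 53 members, all of which passed the filter of a mean of at least 1 FPKM (fragments scaled to gene length and library size), 12 were higher in KO, 40 were lower and 1 did not pass the test (quasi-likelihood F test of edgeR, with p adjusted by Benjamini-Hochberg over all 10820 genes tested and called under 0.05). Of all tested genes 95.6% were called, 7.63% higher and 88.0% lower. Among the members 22.6% were higher and 75.5% lower. The members were chosen with earlier results of these data known, so these shares are a description and not a test of an excess. The members' KO and WT values did not overlap for 52 of 53, against 96.2% of all tested genes. The 33 members at 0 in KO passed the filter through their WT values alone. All 33 were called lower, which restates the zeros and is no further support. Genes at 0 in KO were set to the floor of 3 counts over the KO group (1.25 CPM). The median log2 ratio of CPM was then -4.85 for the members and -4.57 for 10697 of the tested genes, both bounds set by WT levels. The fitted medians, which for genes at 0 depend on the prior count, were -12.85 for the members and -12.42 for all tested genes. In bulk RNA, fewer cells of a type and less RNA per cell cannot be told apart.

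By complex the counts were as follows. All 12 exosome genes were lower and none was higher. Of the 18 deadenylase genes 8 were higher, 9 lower and 1 not called. Decapping had 1 higher and 15 lower, and NMD 3 higher and 4 lower. The share called higher was 7.63% of all tested genes, 0% (exosome), 44.4% (deadenylase), 6.25% (decapping) and 42.9% (NMD). The share called lower was 88.0%, 100%, 50%, 93.75% and 57.1% in the same order. The exosome and decapping shares thus lay near those of all tested genes. The median log2 ratio of CPM was -1.30 for the deadenylases. For the other complexes, with zeros at the floor, it was -5.31 (exosome), -5.11 (decapping) and -5.06 (NMD), which are bounds set by the WT levels of genes at 0 and do not rank these complexes.

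The deadenylase genes include the largest increases. CNOT2 and CNOT1 are the structural core of CCR4-NOT. CNOT2 (ENSG00000111596, hg38 chromosome 12, 70243002 to 70354993, plus strand) was read with 1971, 1899 and 2190 counts in the KO libraries and 4266, 4964 and 4859 in the far deeper WT libraries, or 2551 ± 421 CPM against 74.8 ± 5.4 (SD, n = 3 each). That is 34.1-fold higher in mean CPM (edgeR log2 change 4.69 with SE 0.13, and an edgeR adjusted p of 1.7e-06). Throughout, a fold is a ratio of mean CPM, scaled by library totals. The log2 change, SE and adjusted p come from the edgeR fit, scaled by TMM factors. The log2 change is therefore not the log2 of the fold, and the SE and p belong to the log2 change. CNOT1 (ENSG00000125107, chromosome 16, 58519951 to 58629885, minus strand), the scaffold on which the other subunits assemble, had 1092, 1119 and 1134 counts in KO and 11882, 15238 and 14383 in WT. At 1403 ± 141 against 220.2 ± 25 CPM it was 6.37-fold higher, and the lowest KO library lay at 1297 CPM, far above the highest WT library at 237.

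CNOT6 and CNOT6L, paralogs that encode alternative poly(A)-removing subunits, went opposite ways. CNOT6 (ENSG00000113300, chromosome 5, 180494379 to 180578358, plus strand) was at 0 in all KO libraries and at 7086, 8519 and 7971 counts in WT, which makes it at least 100.02-fold lower. CNOT6L (ENSG00000138767, chromosome 4, 77713387 to 77819615, minus strand) had 290, 250 and 259 counts in KO and 1524, 715 and 1921 in WT. It was 15.1-fold higher at 335 ± 39 against 22.2 ± 10 CPM (log2 change 3.51, SE 0.39, edgeR adjusted p = 0.00011), and WT replicate 2, at 11.1 CPM, was the lowest of its 6 values. CNOT6 was 85.0% ± 6.3 of the counts of the pair in WT and 0% in KO (exact two-sided permutation p = 0.1, the smallest that 3 against 3 allows).

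The sequences show how alike these paralogs are, which bears on whether reads could pass from one to the other. Over their aligned coding sequence (GENCODE release 29, longest coding transcript) CNOT6 and CNOT6L were 73.9% identical, and the longest identical run was 20 bases. Their most similar 60 coding bases, 919 to 978 counted from the start codon in both, are printed with the 6 differing bases in capitals.
CNOT6: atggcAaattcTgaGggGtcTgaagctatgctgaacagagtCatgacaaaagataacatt
CNOT6L: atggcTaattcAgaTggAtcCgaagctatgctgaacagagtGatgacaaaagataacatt
A processed copy, CNOT6LP1, shares more: 39.4% of the distinct 50-base words of the CNOT6L coding sequence occur in another gene, all of them in CNOT6LP1. That copy had 9, 23 and 7 counts in KO and 4, 24 and 8 in WT. Reads of CNOT6L and its copy may therefore be split, with 39 KO counts on the copy against 799 on CNOT6L.

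CNOT7 and CNOT8, the paralogs of the other nuclease position in CCR4-NOT, were both at 0 in KO. CNOT7 (ENSG00000198791) had 7364, 9053 and 8285 counts in WT and was at least 105-fold lower, and CNOT8 (ENSG00000155508), with 5578, 5991 and 5683 counts, at least 73.2-fold. CNOT9 (ENSG00000144580), a subunit that binds regulators of the complex, was at 0 in KO against 8293, 9270 and 8720 counts, at least 112-fold lower. At their WT share of the counts, the members at 0 in KO would have given between 9.19 (LSM6) and 155 (SMG5) counts in a KO library of mean depth.

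Other CCR4-NOT subunits were detected. CNOT4 (ENSG00000080802), a ubiquitin ligase bound to the complex, had 356, 398 and 396 counts in KO and 1955, 2032 and 2002 in WT, and was 15.2-fold higher (482 ± 56.0 against 31.8 ± 0.53 CPM). CNOT11 (ENSG00000158435), with 142, 144 and 149 counts in KO and 2981, 3119 and 3126 in WT, was 3.73-fold higher. CNOT10, the partner of CNOT11, had 0, 2 and 0 counts in KO against 3138, 3173 and 3078 in WT. It was 64.5-fold lower, and pooling the counts gave a 95% exact interval of 16.5 to 494. All of its KO counts came from replicate 2. CNOT3 (ENSG00000088038) was the member that did not pass the test. Its CPM were 145, 59.1 and 67.5 in KO and 81.6, 73.8 and 68.9 in WT, with overlapping groups and 1 KO library above all others (log2 change -0.13, SE 0.28, edgeR adjusted p = 0.66). Without KO replicate 1 the log2 change was -0.60 and CNOT3 was called lower (edgeR adjusted p = 0.0054).

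Both PAN2-PAN3 and the TOB pair had 1 gene higher and 1 lower. PAN3, which recruits the nuclease PAN2 to the tail, had 140, 116 and 87 counts in KO and 1970, 2328 and 2283 in WT, 4.08-fold higher, while PAN2 was at 0 in KO (3271, 3568 and 3355 in WT) and at least 43.3-fold lower. PARN, a separate poly(A) ribonuclease, had no KO count either and was at least 29.3-fold lower. TOB1, an antiproliferative adaptor between the tail and CCR4-NOT, had 154, 102 and 145 counts in KO and 1329, 1611 and 1248 in WT and was 7.63-fold higher. Its paralog TOB2 was at 0 in KO against 892, 848 and 757 counts, at least 10.6-fold lower. The coding sequences of this pair were 69.6% identical with no identical run beyond 14 bases, and their most similar 60 bases (286 to 345 in both) differ at the 10 positions in capitals.
TOB1: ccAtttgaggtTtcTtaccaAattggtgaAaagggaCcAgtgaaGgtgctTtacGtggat
TOB2: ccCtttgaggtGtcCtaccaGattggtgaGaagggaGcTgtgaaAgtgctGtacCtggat

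PABPC1, the main cytoplasmic poly(A)-binding protein, had the most counts of any member in both groups. PABPC1 (ENSG00000070756, chromosome 8, 100685816 to 100722762, minus strand) was at 9576, 9617 and 10134 counts in KO and 52936, 51992 and 49014 in WT. It was 15.1-fold higher, at 12311.5 ± 1469.6 against 817 ± 30 CPM (log2 change 3.51, SE 0.08). It made up 64.2% ± 0.34 of all member counts in KO and 16.4% ± 0.82 in WT. PABPC4 (ENSG00000090621), a related poly(A)-binding protein, went the other way, with 30, 31 and 35 counts in KO and 19063, 18270 and 18147 in WT, or 40.4 ± 6.8 against 295 ± 11 CPM, 7.29-fold lower. PABPC1 was thus 99.67% ± 0.016 of the counts of the pair in KO and 73.5% ± 0.51 in WT, without overlap (exact permutation p = 0.1, the smallest possible). The copy PABPC1P4 had 92 KO counts, and 20.7% of the 50-base words of the PABPC1 coding sequence occur in 7 other genes, so that a part of its reads may be misplaced.

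**Figure D2:**
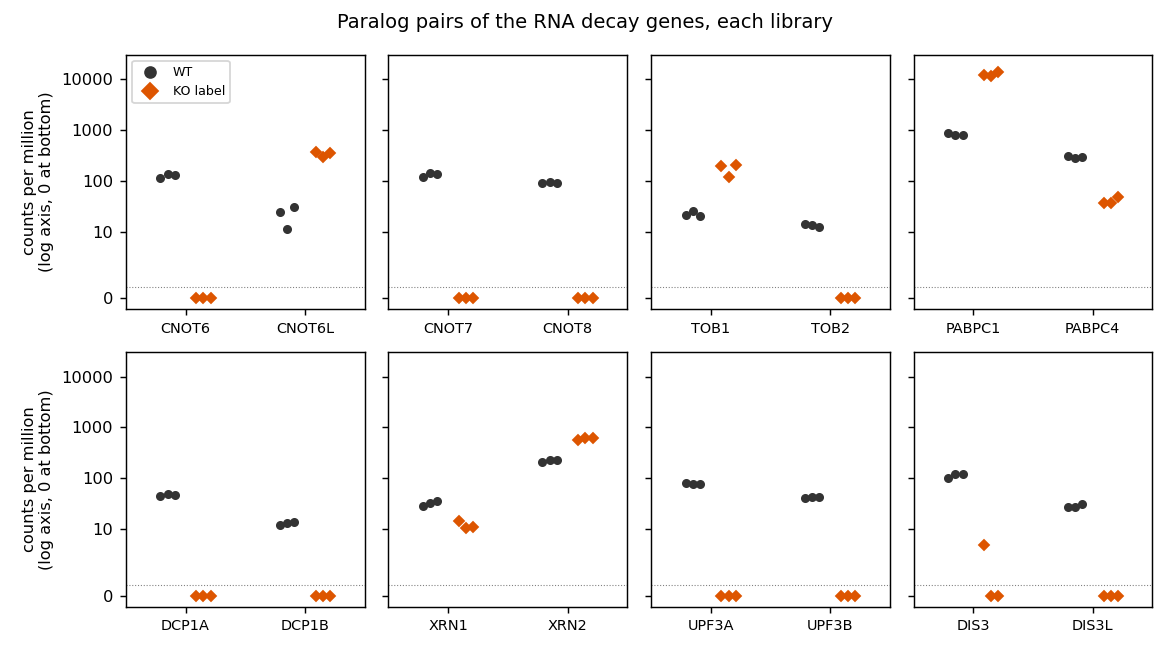
CPM of both members of 8 paralog pairs in each library, on a log axis with 0 below the dotted line; circles are WT and diamonds the libraries labelled OTULIN KO. CNOT6L, TOB1, PABPC1 and XRN2 rise above WT while CNOT6, TOB2, PABPC4 and XRN1 fall below it, and both genes of CNOT7/CNOT8, DCP1A/DCP1B and UPF3A/UPF3B are at 0 in KO.

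Across the 8 pairs fixed for comparison, 4 had 1 member higher and the other lower, as just described for CNOT6L, TOB1 and PABPC1 and below for XRN2. In 3 pairs both were at 0 in KO, and in the pair DIS3 and DIS3L only DIS3 had KO counts, 4 in all. Coding identity within pairs ranged from 61.9% (DIS3 and DIS3L) to 73.9%, and no pair shared an identical run above 24 bases. The read length is not given in the sources used here.

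Decapping and 5′-to-3′ decay genes were mostly at 0 in KO, 13 of 16, as were 71.3% of all tested genes. LSM4 (ENSG00000130520, chromosome 19, 18306236 to 18323112, minus strand), a subunit of the LSM ring that binds shortened tails, was at 0 in KO and at 12114, 10578 and 10403 counts in WT, at least 141-fold lower. EDC4 (ENSG00000038358), the scaffold that activates the decapping enzyme, was at 0 against 8245, 8456 and 7781 counts, at least 104-fold lower. All 7 LSM genes were at 0 in KO, as were DCP1A, DCP1B, DCP2, EDC3, EDC4 and PATL1, 13 genes in all. In WT these 13 ranged from 11.5 to 176 CPM, and they were at least 9.19-fold to at least 141-fold lower. DCP2, the decapping enzyme, was at 114 ± 7.5 CPM in WT and at least 90.8-fold lower.

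XRN2, XRN1 and DDX6 were the decapping-group genes seen in KO. XRN2 (ENSG00000088930, chromosome 20, 21303331 to 21389825, plus strand), the nuclear 5′-to-3′ exonuclease that also acts in transcription termination, had 460, 533 and 458 counts in KO and 13128, 14844 and 14426 in WT. It was 2.69-fold higher, at 606 ± 33 against 225 ± 12 CPM (log2 change 1.04, SE 0.11, edgeR adjusted p = 9.1e-05). XRN1, its cytoplasmic counterpart, had 12, 9 and 8 counts in KO and 1817, 2096 and 2229 in WT, 12.1 ± 2.4 against 32.6 ± 3.4 CPM, 2.70-fold lower. DDX6 (ENSG00000110367), a helicase that joins deadenylation to decapping, was lower by an amount that depended on scaling. Its CPM were 132, 140.2 and 165 in KO and 179.6, 182 and 191 in WT, 1.26-fold lower without overlap (log2 change -0.73, SE 0.11, edgeR adjusted p = 0.00068). With median-ratio factors the log2 change was -1.29 (edgeR adjusted p = 1.4e-05), and with WT counts thinned to the KO depth DDX6 lost its call (log2 change -0.28, edgeR adjusted p = 0.11).

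All 12 exosome genes were lower, and only DIS3 and EXOSC3 had any KO count, where 88.0% of all tested genes were lower and 71.3% had none. EXOSC10 (ENSG00000171824, chromosome 1, 11066618 to 11099869, minus strand), its nuclear exonuclease, was at 0 in KO and at 7458, 8448 and 7883 counts in WT, at least 101-fold lower. EXOSC6 (ENSG00000223496), a ring subunit, was at 0 against 6413, 6018 and 5449 counts, at least 75.9-fold lower. There were 10 exosome genes at 0 in KO, with WT levels of 19.3 to 126 CPM, and they were at least 15.4-fold to at least 101-fold lower. They passed the expression filter through WT alone, so their calls of lower add nothing to the zeros. DIS3 and EXOSC3 rested on 1 library each. DIS3, the catalytic subunit of the ring, had 4, 0 and 0 counts in KO against 6277, 7875 and 7665 in WT, 70.3-fold lower (95% exact interval 27.1 to 255), and was at 0 without KO replicate 1. EXOSC3, a cap subunit of the ring, had 0, 4 and 0 counts, 27.6-fold lower (10.0 to 93.9), and was at 0 without KO replicate 2. EXOSC3 overlaps DCAF10 on the opposite strand, which had 235 KO counts, and without strand their reads cannot be told apart. A total of 0 counts in the KO group allows a level of up to 1.25 CPM, so lower expression than this would not have been detectable at this depth. These intervals and floors cover counting error only.

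In NMD, the kinase and the bridging factor were higher while the helicase was nearly absent. UPF2 (ENSG00000151461, chromosome 10, 11920022 to 12043170, minus strand), which links UPF1 to the exon junction complex, had 267, 195 and 220 counts in KO and 1931, 2390 and 2357 in WT. It was 8.08-fold higher, at 286 ± 54 against 35.4 ± 3.8 CPM (log2 change 2.61, SE 0.14, edgeR adjusted p = 1.2e-05). SMG1, the kinase that phosphorylates UPF1, had 228, 252 and 248 counts in KO and 5742, 6287 and 6746 in WT, 3.06-fold higher. SMG6 (ENSG00000070366), the endonuclease of NMD, had 52, 87 and 101 counts in KO and 2945, 3183 and 2751 in WT. It was 2.15-fold higher at 101 ± 37 against 47.1 ± 2.5 CPM, without overlap, but only just called (log2 change 0.70, SE 0.23, edgeR adjusted p = 0.023). Its log2 change was 0.13 without a call under median-ratio scaling (edgeR adjusted p = 0.54), and the call was also lost without KO replicate 2 or 3 and without WT replicate 1, 2 or 3 (adjusted p from 0.065 to 0.092).

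UPF1 (ENSG00000005007), the helicase at the centre of NMD, had 7, 0 and 0 counts in KO against 9286, 9673 and 9217 in WT. It was 51.9-fold lower (95% exact interval 24.9 to 128), and all of its KO counts came from replicate 1. SMG5 (ENSG00000198952, chromosome 1, 156249224 to 156282825, minus strand), an adaptor that recruits decay enzymes to UPF1, was at 0 in KO and at 11617, 12640 and 12269 counts in WT, at least 155-fold lower. UPF3A (ENSG00000169062), a paralog of UPF3B, was at 0 against 5062, 5074 and 4873 counts, at least 63.7-fold lower, and UPF3B at least 33.4-fold. SMG1 shares sequence with its many copies on chromosome 16: 25.6% of its 50-base coding words occur in other genes. The 9 rows named as SMG1 copies held 11910 WT counts against 18775 on SMG1 itself, but 8 KO counts against 728. The part of misplaced reads in the SMG1 result was not tested.

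**Figure D3:**
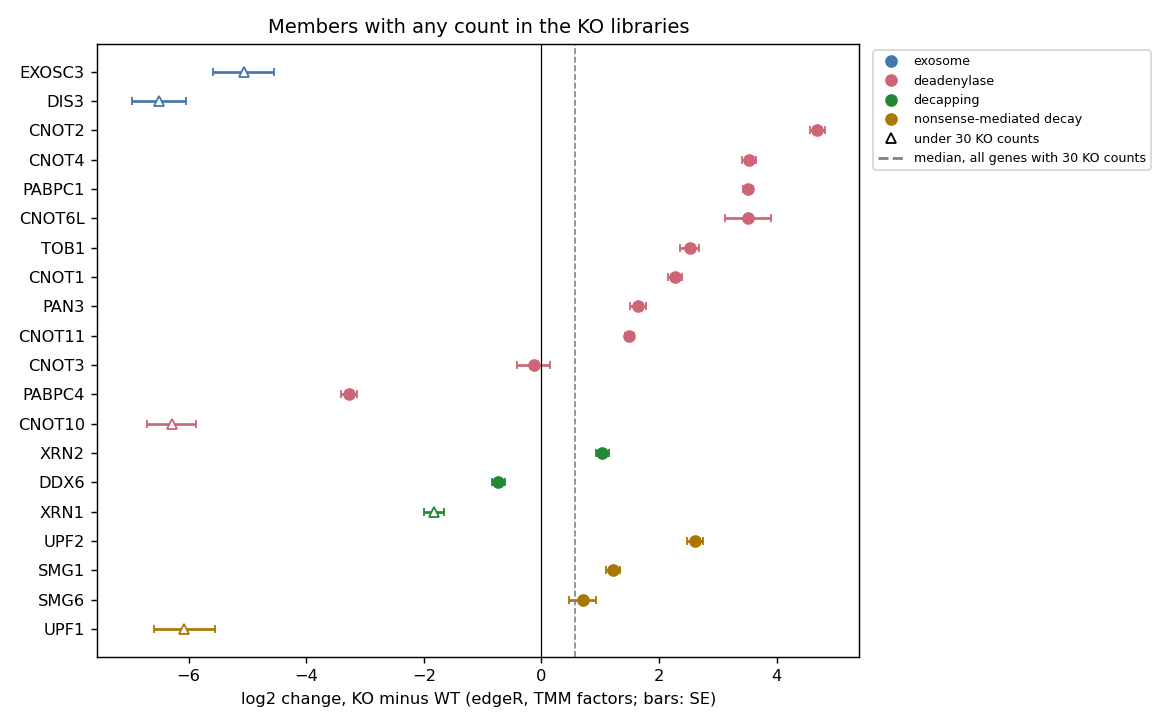
Log2 change of KO over WT, fitted with edgeR and TMM factors, for the 20 members with any KO count; bars are standard errors, colours are complexes and open triangles have under 30 KO counts. CNOT2 lies highest at 4.69 and DIS3 lowest at -6.51, and the dashed line at 0.57 is the median of the 1496 tested genes with at least 30 KO counts.

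The size of these changes depends on scaling. Among the 1496 tested genes with at least 30 KO counts TMM factors gave a median log2 change of 0.57, library totals one of 0.96 and median-ratio factors one of 0.01. Relative to that median, the log2 change was 4.12 for CNOT2, 2.96 for CNOT4, 2.95 for PABPC1, 2.94 for CNOT6L, 2.04 for UPF2, 1.95 for TOB1, 1.71 for CNOT1, 1.07 for PAN3 and 0.93 for CNOT11. It was 0.65 for SMG1, 0.47 for XRN2 and 0.13 for SMG6. Among the other members with KO counts in all libraries it was -3.84 for PABPC4, -2.39 for XRN1, -1.30 for DDX6 and -0.70 for CNOT3, each further below 0 than the TMM value. All 12 members called higher stayed above 0 under each of the 3 scalings, and all but SMG6 kept their call.

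As a share of the library, the summed deadenylase counts were higher and the summed exosome counts lower in KO. Of the 18 deadenylase genes, however, 8 were higher and 9 lower. The sum rests on few genes, as PABPC1, CNOT2 and CNOT1 held 64.2%, 13.3% and 7.33% of all member counts in KO. The deadenylase genes together took 1.71%, 1.59% and 2.01% of the counts in the KO libraries and 0.226%, 0.230% and 0.229% in WT. Without PABPC1 their share was still higher, at 0.540% ± 0.068 against 0.147% ± 0.0047. Exosome genes took 0.000319% ± 0.00028 in KO and 0.0746% ± 0.0018 in WT. Decapping genes took 0.0764% ± 0.0046 and 0.131% ± 0.0017. For each of these the groups did not overlap, and the exact permutation p was 0.1, the smallest possible. NMD genes took 0.0684%, 0.0619% and 0.0784% in KO and 0.0629%, 0.0652% and 0.0661% in WT, which overlap (exact permutation p = 0.5). This sum combines UPF2, SMG1 and SMG6, which were higher, with UPF1, SMG5, UPF3A and UPF3B, which were lower. Scaled by length, as a share of summed FPKM, the NMD genes were lower in KO, at 0.0153% ± 0.0045 against 0.0317% ± 0.0012.

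**Figure D4:**
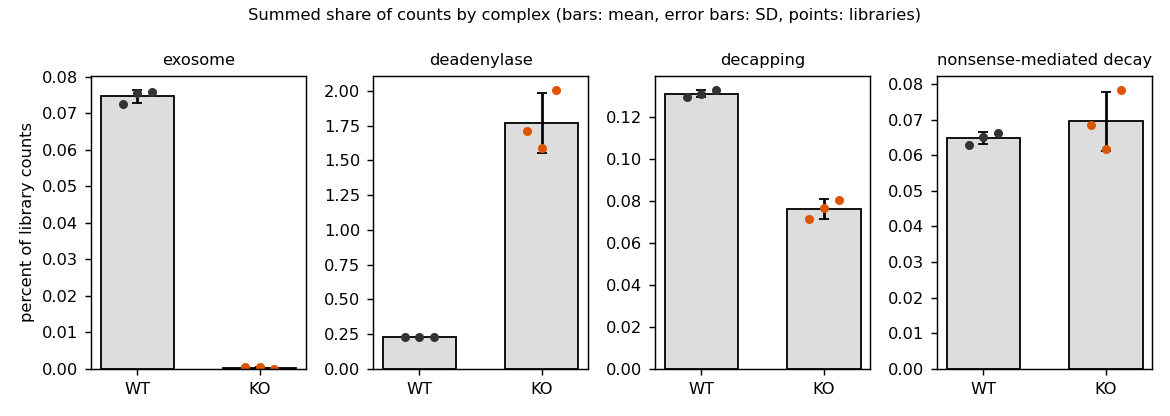
Share of all counts in a library taken by the genes of each complex, in percent, with a separate axis for each complex starting at 0. Bars are means of 3 libraries, error bars SD and points single libraries. The deadenylase share is 1.77% in KO against 0.228% in WT, the exosome share is close to 0 in KO, and the NMD libraries of both groups overlap.

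Levels per length were ordered differently in the groups. In WT the highest FPKM among members were those of PABPC1 (78.5 ± 3.0), XRN2 (60.6 ± 3.2), LSM4 (56.3 ± 5.3) and SMG5 (33.5 ± 1.1). XRN2 and LSM4 do not differ there beyond their spread. In KO the order was PABPC1 (1157 ± 148), CNOT2 (163 ± 28), XRN2 (159 ± 9.3) and CNOT1 (116 ± 13), with CNOT2 and XRN2 not separated. CNOT2 was at 4.89 ± 0.35 FPKM in WT. The 15 members with at least 30 KO counts had a median of 8.07 FPKM in WT (2.18 to 78.5), and the 33 members at 0 had 13.4 (2.37 to 56.3). In CPM, not scaled by length, the order was the other way, with WT medians of 74.8 and 63.5. Over all tested genes the medians were higher for those with at least 30 KO counts than for those at 0 on both scales, 8.66 against 6.73 FPKM and 72.5 against 36.3 CPM.

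Gene size went with detection, as a description. The median gene span was 106 kb for the 15 detected members and 19.2 kb for the 33 at 0, and the median coding length 2139 and 993 bases. Over all tested genes the spans were 50.4 kb for those with at least 30 KO counts and 23.0 kb for those at 0. Coding GC content overlapped widely (41.2% to 60.4% against 40.6% to 78.4%). The table lists a transcript of the NMD type for 27 of the 53 members and for 37.6% of all tested genes, and for 6 of the 15 and 18 of the 33. Of the 7 NMD factors only UPF1 had one listed.

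Promoters are shown for 2 genes of the same complex that went opposite ways, CNOT2 and CNOT6. They are RefSeq sequences on GRCh38.p14, from 250 bases before to 50 after the gene start that RefSeq gives, both on the plus strand and 5′ to 3′. Capitals mark the GC box GGGCGG and the motif CCAAT, searched on both strands with TATAAA and TGACGTCA.
CNOT2, chr12:70243491-70243790: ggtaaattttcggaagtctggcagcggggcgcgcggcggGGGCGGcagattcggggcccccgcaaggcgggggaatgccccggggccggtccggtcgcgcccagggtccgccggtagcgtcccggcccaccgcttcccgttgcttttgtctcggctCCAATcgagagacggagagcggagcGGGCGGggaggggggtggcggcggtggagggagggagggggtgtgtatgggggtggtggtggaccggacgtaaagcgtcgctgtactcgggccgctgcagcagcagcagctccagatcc
CNOT6, chr5:180494129-180494428: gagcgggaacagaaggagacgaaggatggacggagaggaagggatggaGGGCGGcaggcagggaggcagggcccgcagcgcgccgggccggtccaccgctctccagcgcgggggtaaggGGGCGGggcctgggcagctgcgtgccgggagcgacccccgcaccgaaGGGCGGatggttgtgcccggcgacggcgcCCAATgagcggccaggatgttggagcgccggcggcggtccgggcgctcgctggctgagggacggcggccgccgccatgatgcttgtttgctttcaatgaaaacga
Both windows have a GC content of 72%, with 35 CpG in CNOT2 and 36 in CNOT6, and both hold GGGCGG and CCAAT but neither of the other motifs. For CNOT6 the RefSeq start is that of the table, and for CNOT2 it lies 739 bases downstream of it, so that the CNOT2 window lies inside the gene as the table bounds it. Promoters were matched for 45 of the 53 members, and the start in the table fell within the window for 32 of these and outside it for 13, by up to 66938 bases for SMG6. The counts of motifs thus describe RefSeq windows, and the start used in these cells was not measured. GGGCGG was in 36 of these (80%), against 45.0% of all 35116 promoters, in 9 of 12 with at least 30 KO counts and in 23 of 28 at 0. CCAAT was in 4 of the 12 and 11 of the 28, against 34.6% of all promoters. TATAAA was in 1 member promoter, that of EXOSC8, against 11.5% of all, and TGACGTCA in 1, that of XRN2, against 1.85%.

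Partners of these complexes were counted in lists made with earlier results of these data known, and their counts stand beside 7.63% higher and 88.0% lower among all tested genes. Among 20 tested regulators of deadenylation, such as the PUM proteins, GW182 proteins and Roquins, 8 were higher, 10 lower and 2 not called. RC3H2, a Roquin that brings CCR4-NOT to stem-loops in messages, had 1894, 1880 and 1947 counts in KO and 7878, 9108 and 9285 in WT, 17.2-fold higher. TNRC6A, a GW182 protein that joins microRNA complexes to CCR4-NOT, had 1267, 1223 and 1147 against 6059, 7158 and 6817 counts, 14.3-fold higher. Of 16 cofactors of the exosome, 2 were higher and 14 lower (87.5%), close to the share over all genes. The higher genes were ZFC3H1, a subunit of a nuclear adaptor of the exosome, at 4.51-fold, and TENT4B, a noncanonical poly(A) polymerase, at 7.49-fold.

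Of 9 tested decapping cofactors 8 were lower, none higher and 1 not called. LSM14B, with 0, 0 and 19 counts in KO, fell 10.8-fold, and all of its KO counts came from replicate 3. NUDT16 fell 29.6-fold on 3 counts (95% exact interval 9.37 to 133) and was at 0 without KO replicate 2. Of 12 tested NMD and exon junction cofactors 2 were higher and 10 lower. The translation termination factor ETF1 was 5.27-fold higher (898, 836 and 935 counts against 12445, 14074 and 13623).

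Transcripts known to be degraded by NMD were lower in all 8 tested cases of 10. ATF4, a transcription factor message with upstream reading frames, fell 58.7-fold on 0, 5 and 4 KO counts. ZFAS1, a host of small nucleolar RNAs, fell 38.5-fold on 3 counts (95% exact interval 14.5 to 206) and was at 0 without KO replicate 3. Of all tested genes 88.0% were lower, so these counts do not separate NMD-sensitive transcripts from the rest.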

How the data were processed

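Counts and FPKM of 6 libraries come from 1 deposited table, with a column of each for every library. The authors' counts, so named in the file headers, are whole numbers for each gene and were taken as not normalized. The authors' FPKM, likewise named in the file headers, sum to different totals in different libraries. Tools and build, per the submitters' processing notes, were HISAT2 2.0.4, StringTie 1.3.4d, cutadapt 1.9, DESeq2 and hg38. No source used here gives the annotation release, strandedness or read length, so overlapping genes and copies may share reads.

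Columns were matched to samples by library name and grouped by the genotype in the titles. Replicate pairs differed by a chi-square of 15.5 to 41.7 per degree of freedom, so no column was a copy of another. Whether replicates were separate cultures or repeated sequencing of the same material cannot be told from this. Genotype was the only term of the model (edgeR 4.0.16 under R 4.3.3, glmQLFit with glmQLFTest), scaled by TMM and fitted to 10820 genes whose mean FPKM reached 1. A call needed an adjusted p below 0.05. The SE was obtained by dividing the size of the log2 change by the root of F. CPM use the total of all counts, and a fold is one mean CPM over the other. For genes at 0 in KO the fold is against 3 counts over the KO group (1.25 CPM). On simulated counts with WT proportions in both groups, the test recovered 77 of 100 genes altered 2-fold and 92 of 100 altered 4-fold. It made 11 false calls among the unaltered genes of the 10820 simulated. The simulation lacks the zeros of the KO libraries, and its dispersion of 0.018 was fitted within WT alone. Recovery and false calls at the spread of the KO libraries were not tested.

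Members and lists were chosen with earlier results of these data known. Values in every library are given for members with at least 30 KO counts, for the 2 members at 0 in KO with the highest WT counts in each complex, for paralog pairs, and for the 2 called genes with the most KO counts in each list of partners. Some items are not reported here. Others given in full were selected once their values had been seen. Alternative settings were a filter at 5 FPKM or none, median-ratio factors, library totals, DESeq2 1.42.0, limma 3.58.1 on log2(FPKM + 1) and log2(FPKM + 0.1), a replicate block, WT counts thinned to KO depth, and each library left out in turn. Python 3.11.15, scipy 1.17.1 and matplotlib 3.10.9 served for the rest.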

Additional observations from a re-analysis of the deposited data

How the results depend on the processing

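Of the 12 members called higher in KO, all stayed above 0 under each alternative. Outside the replicate block 11 or 12 kept the call, and SMG6 was the member that lost it. The block also ended the call of PAN3 (edgeR adjusted p = 0.070). With a mean of at least 5 FPKM only 36 members were tested, and 23 of these were called lower. Among them were 4 of 4 tested exosome genes and 5 of 14 tested deadenylase genes. Over all genes 3851 of 4719 tested were lower. Same-numbered KO and WT libraries had deviations that correlated at 0.020, -0.0043 and 0.050, and differently numbered ones at -0.046 to 0.034. As 71.3% of tested genes were at 0 in all KO libraries, such correlations cannot show whether the replicate numbers pair the libraries. With the replicate block 10 members were higher and 1 lower (0 exosome, 1 deadenylase, 0 decapping and 0 NMD genes), with 452 genes higher and 289 lower over all, and the 33 members at 0 in KO had edgeR adjusted p from 0.075 to 0.108. The cause was not tested. CNOT3, not called, turned to a log2 change of 0.27 with library totals, 0.12 with limma at either pseudocount, 0.30 with thinned WT counts, and to 0.071 and 0.095 without KO replicate 2 or 3, against -0.60 without KO replicate 1. Without each library in turn, 11 to 12 members were higher and 39 to 41 lower, and no complex changed its counts by over 1.5 times. Depth in KO limits what can be said of any member below 1.25 CPM there.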
